A study of Mus musculus with 4 samples.

Results

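Collapsin response mediator proteins (CRMPs, encoded by Crmp1 and the Dpysl genes) and stathmins (encoded by the Stmn genes) are regulators of microtubules in growing axons. The transcripts of 3 such genes, Dpysl2, Dpysl5 and Stmn2, were examined for contacts with IMP2, which is encoded by Igf2bp2 and binds messenger RNA. They are the genes whose symbol starts with Dpysl or Stmn in the list of IMP2 clusters from mouse brain, and they carried 19 of its 1828 clusters, in 3 of its 761 genes. Another relative, Crmp1, does not have such a symbol but was in the list with 2 clusters, and it is described beside them. Because the genes were taken from the list, their presence in it is not a result, and the comparisons below concern the number, height, width and position of their clusters.

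The clusters came from HITS-CLIP, in which ultraviolet light joins a protein to the RNA it touches, the protein is pulled down and the RNA left on it is sequenced. Brains of Swiss Webster embryos at E14 (embryonic day 14) gave 4 libraries, 2 titled M and 2 titled R. The labels name antibodies raised in mouse and in rabbit without tying either to a letter, and they describe no knockout tissue, treatment or other genotype. A single list stood for these libraries, so no value has a replicate error, the number of tags behind it is unknown, and no difference between genes could be tested. Marker transcripts of the tissue could not be checked either, since the list holds bound RNA and no expression level.

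CRMPs carry guidance signals, such as those of the repellent semaphorin 3A, to the cytoskeleton of the growth cone. CRMP2 binds tubulin, and its phosphorylation by kinases that include CDK5 and GSK3 weakens that binding. Stathmins bind free tubulin and favour the shrinking of microtubules, and phosphorylation by JNK and other kinases releases that grip. CRMP2, the product of Dpysl2, promotes axon growth and the choice of the axon among neurites. CRMP5, the product of Dpysl5, restrains neurite outgrowth. Stathmin-2 (SCG10), the product of Stmn2, is a membrane-anchored protein of growth cones in developing neurons.

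A height and a fold were deposited for each cluster. The height is taken to be the greatest depth of overlapping tags, and the fold is the authors' ratio of that height to a level that the file header does not define. Both are the authors' values and serve here to describe and rank clusters within the list. The whole list had a median height of 30, a median fold of 5.4 and a median width of 53 bases, and its lowest height was 18. Transcript abundance was not measured, so a tall cluster and an abundant transcript cannot be told apart.

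Dpysl2 had the most and the tallest clusters of the family. Its 10 clusters all lay in the 3' UTR, which occupies chromosome 14 from 67421701 to 67424181 on the minus strand (mm9) and is 2481 bases long. They ran nearly from end to end of it: the first began at base 99 after the stop codon and the last ended 23 bases before the 3' end. The tallest, of height 96 and fold 8.34, was 391 bases wide and lay near the 3' end, at 67421866 to 67422256 on chromosome 14. It ranked 3 by height and 5 by width among the 1828 clusters. The next tallest, of height 89 and fold 8.57, was 303 bases wide at 67422472 to 67422774, upstream of the tallest by 215 bases. A further cluster of height 73 and fold 8.4 was 272 bases wide at 67423812 to 67424083, close to the stop codon. The 3 tallest clusters of Dpysl2 were thus spread over the 3' UTR, with midpoints at 9.43%, 62.8% and 85.5% of its length.

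Between these lay a run of lower and narrower clusters. In order from the stop codon their heights were 58, 28, 37, 38, 48 and 36, with folds of 6.9, 3.33, 4.42, 4.45, 4.59 and 4.2. The first of them was 166 bases wide and the others measured 37, 91, 54, 73 and 91 bases. The lowest cluster of the gene, of height 18 and fold 2.36, was the last before the 3' end, with a width of 74 bases. Within the gene the height thus spanned 5.33 times from lowest to highest, and the taller clusters tended to be wider (Spearman's rho = 0.78 over the 10 clusters, which share 1 transcript; rho = 0.53 over all 1828 clusters). Several clusters were nearly contiguous, with gaps of 3 and 8 bases between the neighbours at bases 473 to 777.

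**Figure D1:**
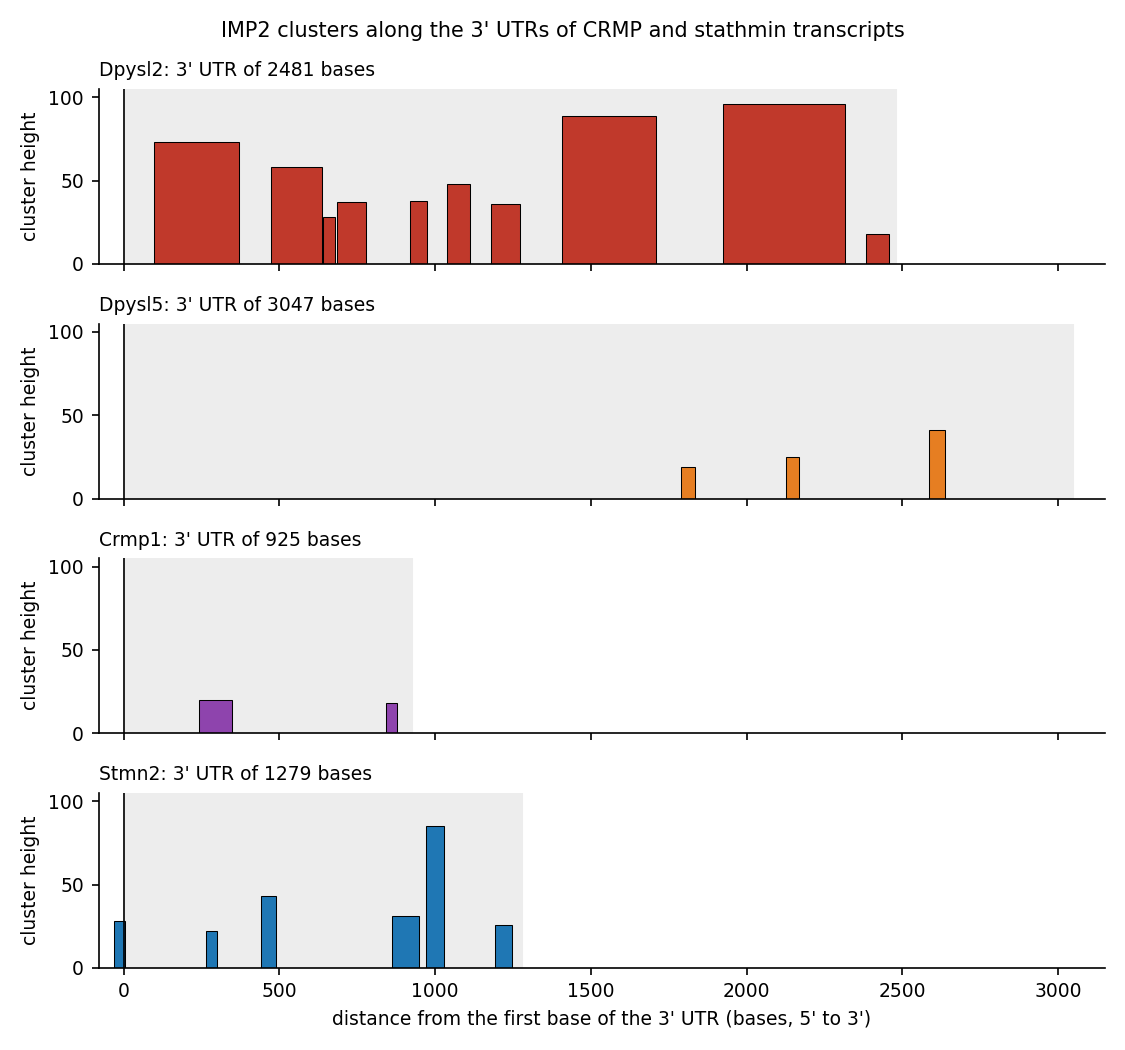
Each panel shows the 3' UTR of 1 transcript (grey) with its IMP2 clusters as boxes; the x axis is the distance from the first base of the 3' UTR in bases and the y axis is the cluster height. The 10 clusters of Dpysl2 line nearly the whole 3' UTR, the 3 of Dpysl5 start at base 1789 and beyond, the 2 of Crmp1 are low, and the first of the 6 Stmn2 clusters crosses the stop codon at 0.

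Wide clusters and dense coverage set Dpysl2 apart from most of the list. Together its clusters covered 62.6% of the 3' UTR, a share that ranked 9 among the 729 genes with a 3' UTR interval, whose median was 4.7%. Clusters at least 250 bases wide held 62.2% of its clustered bases. There were 34 such clusters in the whole list, in 18 genes, and only Dpysl2, Map1b, Nrep, Scd2 and Sox11 had 3 or more. Clusters of height 70 or more numbered 50, and only Dpysl2, Map1b and Sox11 had 3 or more of those. Map1b encodes a microtubule-associated protein and Sox11 a transcription factor of newborn neurons; the limits of 250 bases and height 70, and the genes that met them, were chosen after the values were seen. Against the 74 other listed genes whose 3' UTR was within 10% of its length, Dpysl2 had the highest share covered, with a median of 3.21% and a maximum of 42.0% (Ywhag, a 14-3-3 protein gene) among the others.

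**Figure D2:**
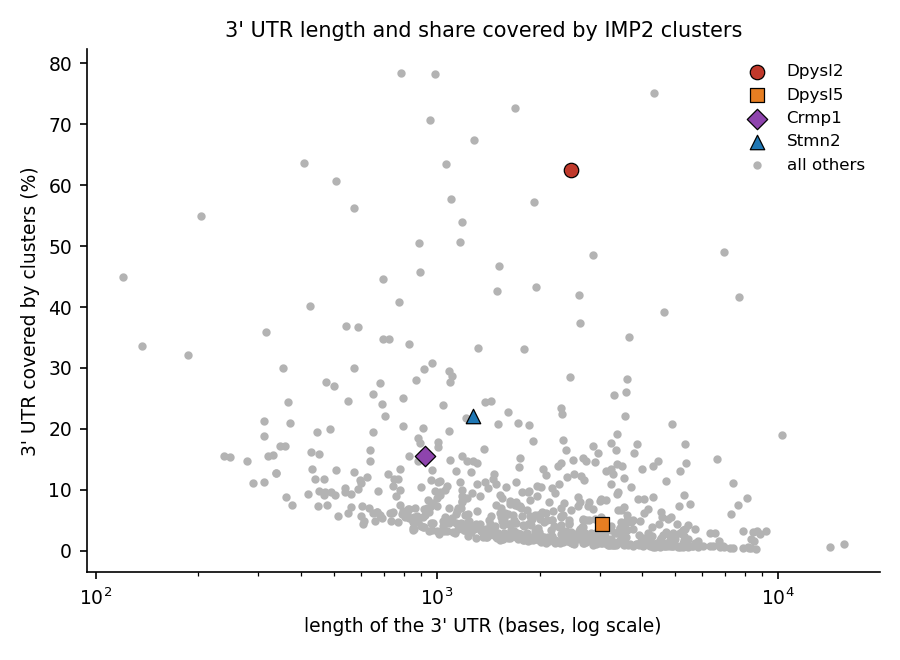
The share of the 3' UTR covered by clusters is plotted in percent against the length of the 3' UTR in bases on a log scale, 1 point per gene. Dpysl2 at 62.6% stands above the other genes of like length, Stmn2 at 22.1% and Crmp1 at 15.6% lie above the median of 4.7%, and Dpysl5 at 4.46% lies close to it.

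Dpysl5 had the longest 3' UTR of the 4 genes and, with all listed clusters counted, the smallest covered share; counting taller clusters alone put Crmp1 below it. Its 3' UTR spans 31098696 to 31101742 on chromosome 5 (mm9, plus strand), 3047 bases, of which 3 clusters covered 4.46%. The first 58.7% of the 3' UTR held no cluster. From there the heights were 19, 25 and 41, with folds of 2.62, 3.56 and 5.99 and widths of 46, 40 and 50 bases. The tallest was also the one nearest the 3' end, at 31101283 to 31101332, and ended 410 bases before it. The clusters stood apart from each other, with gaps of 294 and 419 bases, and none was wider than the median of the list. A height of 41 placed the gene at rank 182 of 761, while its fold of 5.99 placed it at rank 444, below the median gene. Of 64 other listed genes with a 3' UTR of like length, 17 had at least as many clusters and 21 at least as large a covered share.

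Crmp1, which encodes CRMP1, another transducer of semaphorin 3A signals, was at the low end of the list. Its clusters appeared under 2 transcripts with nearly the same 3' UTR, the longer being 925 bases at 37682448 to 37683372 on chromosome 5 (mm9, plus strand). The cluster at 37682691 to 37682796 had a height of 20, a fold of 2.29 and a width of 106 bases. The cluster at 37683289 to 37683326 had a height of 18, equal to the lowest of the list, a fold of 2.54 and a width of 38 bases. By highest cluster the gene ranked 696 of 761, and by highest fold 759. All 48 other listed genes with a 3' UTR of like length reached at least its height. These low clusters covered 15.6% of its short 3' UTR, a larger share than in Dpysl5. With clusters above the list's median height alone the order turned, with 0% covered in Crmp1 and 1.64% in Dpysl5. Without the highest cluster of each gene the order held, with 4.11% covered in Crmp1 and 2.82% in Dpysl5.

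Stmn2 carried a single dominant cluster among lower ones. Its 6 clusters had heights of 28, 22, 43, 31, 85 and 26 in 5' to 3' order, with folds of 3.17, 2.7, 4.83, 3.28, 9.25 and 3. The 3' UTR is 1279 bases long, at 8560326 to 8561604 on chromosome 3 (mm9, plus strand). The tallest cluster, at 8561297 to 8561353, covered bases 972 to 1028 of it and was 1.98 times as high as the next of the gene. In Dpysl2 that ratio was 1.08 and in Dpysl5 it was 1.64. As listed, the Stmn2 peak was also narrow for its height: with 57 bases it ranked 826 by width but 18 by height among all clusters, unlike the broad tall clusters of Dpysl2. A cluster of height 31 and width 88 bases, at 8561187 to 8561274, ended 22 bases before it. Joining clusters at most 50 bases apart merged these neighbours into 1 wider cluster, so the narrow width of the peak depended on how clusters were split. Among 59 other listed genes with a 3' UTR of like length, only Pgrmc1, a gene for a haem-binding membrane protein, reached a height of 85 or more, with 94.

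The first Stmn2 cluster was the exception to the 3' UTR in this group. It lay at 8560296 to 8560330 on chromosome 3, across the boundary between coding sequence and 3' UTR, with 30 bases before the boundary and 5 after it, and the authors listed it as coding sequence. Of the 19 clusters of Dpysl2, Dpysl5 and Stmn2, the other 18 (94.7%) lay in a 3' UTR, close to the 94.1% of all clusters. Of the 99 clusters of the list assigned here to coding sequence by their midpoint, 3 reached into a 3' UTR interval of their gene in this way. The other 2 belonged to Atp2a2, a calcium pump gene, and Nrep, both named after their values were seen. Clusters across a stop codon with their midpoint in the 3' UTR were not counted.

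**Figure D3:**
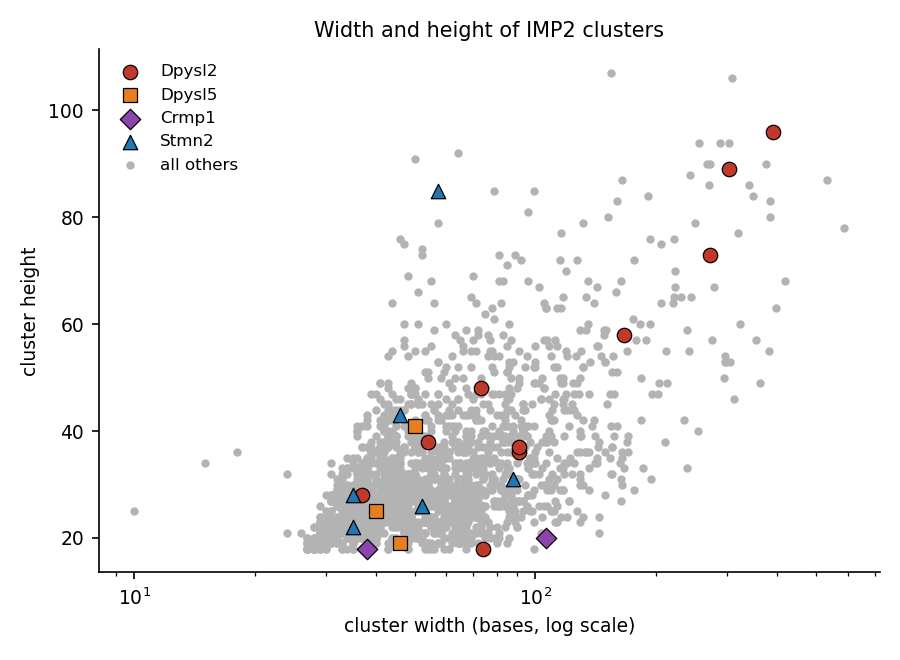
Each point is 1 cluster, with its width in bases on a log scale on the x axis and its height on the y axis. The tall Dpysl2 clusters (heights 73, 89 and 96) are 272 to 391 bases wide, whereas the Stmn2 cluster of height 85 is 57 bases wide.

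Set side by side, Dpysl2 and Stmn2 had nearly the same density of clusters assigned to the 3' UTR, as listed, and differed in their width. The density leaves out the Stmn2 cluster across the stop codon, so it takes 5 of the 6 Stmn2 clusters. Counting that cluster would raise the Stmn2 density. Dpysl2 had 4.03 clusters per 1000 bases of 3' UTR and Stmn2 had 3.91, against 0.985 in Dpysl5, 2.16 in Crmp1 and a median of 0.861 over 729 genes. That likeness depended on how close clusters were counted: with those at most 50 bases apart joined the densities were 3.22 in Dpysl2 and 3.13 in Stmn2, but with those at most 100 bases apart joined they were 2.02 in Dpysl2 and 3.13 in Stmn2. The median width was 91 bases in Dpysl2, 49 in Stmn2, 46 in Dpysl5 and 72 in Crmp1, and joining at 50 bases made it 181.5 in Dpysl2 and 46 in Stmn2. The covered share was 62.6% in Dpysl2 and 22.1% in Stmn2, a ratio of 2.83. By number of clusters Dpysl2 ranked 19 and Stmn2 47 of 761 genes. These counts were shared: 5 genes had 10 clusters and 20 had 6. A single cluster was the commonest finding, in 419 genes (55.1%).

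**Figure D4:**
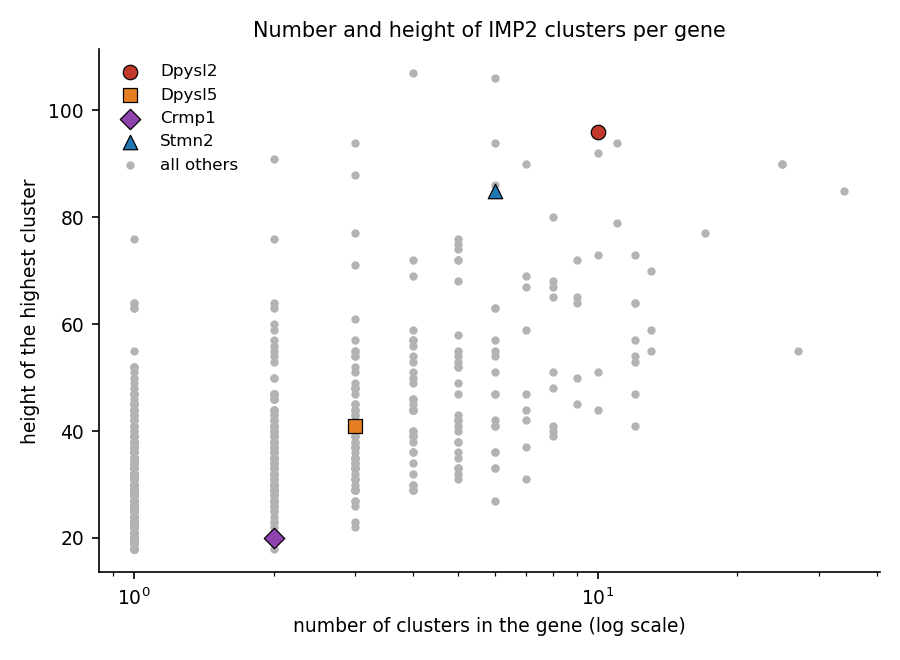
The height of the highest cluster is plotted against the number of clusters on a log scale, 1 point per gene. Dpysl2 (10 clusters, height 96) and Stmn2 (6 clusters, height 85) lie near the top, Dpysl5 (3 clusters, height 41) in the middle and Crmp1 (2 clusters, height 20) near the bottom.

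The order of the genes depended on whether height or fold was read. By highest cluster the order was Dpysl2 (96), Stmn2 (85), Dpysl5 (41) and Crmp1 (20). By highest fold it was Stmn2 (9.25), Dpysl2 (8.57), Dpysl5 (5.99) and Crmp1 (2.54). Dpysl2 and Stmn2 ranked 3 and 14 of 761 genes by height but 173 and 131 by fold. Among the 19 clusters of Dpysl2, Dpysl5 and Stmn2, 12 were taller than the median of the list, which 46.9% of all clusters were. A fold above the median of the list was held by 6 of the 19 (31.6%), against 49.9% of all clusters. The median fold of a gene's clusters was 4.52 in Dpysl2, 3.56 in Dpysl5, 3.22 in Stmn2 and 2.42 in Crmp1, all below the median gene at 5.6.

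Dividing height by fold gives the level that the fold was taken against, which was high in these transcripts and less even in Dpysl2 than in the others. It ranged from 7.63 to 11.5 over the Dpysl2 clusters, from 6.84 to 7.25 in Dpysl5, from 8.15 to 9.45 in Stmn2 and from 7.09 to 8.73 in Crmp1. In Dpysl2 it was 11.5, 10.5 and 10.4 in the clusters of height 96, 48 and 89, and at most 8.69 in its other clusters. The 19 clusters of Dpysl2, Dpysl5 and Stmn2 all exceeded the median of 5.96 over all clusters. By their median level Stmn2 (8.87) ranked 14, Dpysl2 (8.56) 25, Crmp1 (7.91) 59 and Dpysl5 (7.02) 125 of 761 genes. The file header does not say what this level measures.

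**Figure D5:**
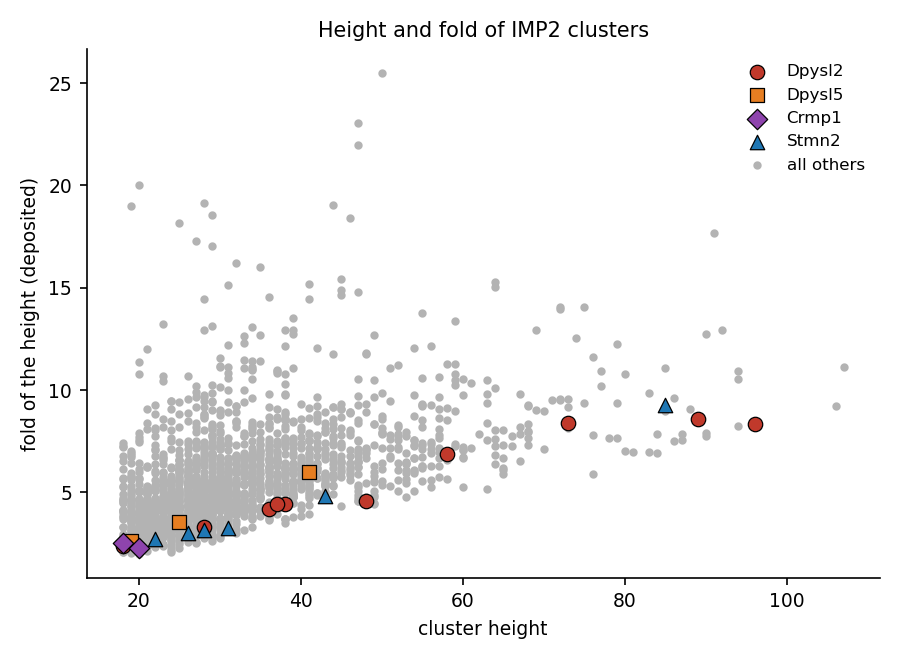
Each point is 1 cluster, with its height on the x axis and the authors' fold of the height on the y axis. The clusters of the family lie along the lower side of the cloud, so their folds are low for their heights: the Dpysl2 cluster of height 96 has a fold of 8.34.

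Not every relative was in the list. Of the 5 CRMP genes, Dpysl3 (CRMP4) and Dpysl4 (CRMP3) had no cluster in the list analysed here, and of the 4 stathmin genes Stmn1, Stmn3 and Stmn4 had none, whether searched by symbol, older symbol or RefSeq accession. In all, 4 of the 9 family genes were listed, beside 3.47% of all protein-coding genes, a count that includes the 3 genes the group was chosen from. Of the 9, 3 had a cluster taller than the median height (1.87% of all protein-coding genes) and 4 had at least 2 clusters (1.56%). Those 3 are the genes the group was chosen from, and the 4 are the same genes with Crmp1, so neither count is a result. A gene without a line had no cluster in a list whose lowest height was 18 and lowest fold 2. It was not shown to lack contact with IMP2, and whether its transcript was abundant in these brains is not known from these data.

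Some genes that act on CRMPs were listed as well, none with a cluster as tall as the tallest of Dpysl2 or Stmn2. Of 23 genes of semaphorin 3A signalling to CRMPs, 5 (21.7%) were listed, against 3.47% of all protein-coding genes. The gene lists were chosen with earlier results of these data known, and their shares were not tested. The 5 genes had a median highest cluster of 25 against 31 over all listed genes. They were the semaphorin receptor gene Plxna2 (height 44), the CRMP kinase gene Gsk3b (height 39, with 8 clusters), the GTPase gene Rac1 (25), Sema3a itself (20) and the kinase gene Rock2 (19), which lies outside the naming rule. The Sema3a cluster, at 13600367 to 13600405 on chromosome 5 of mm9, combined that low height with a fold of 10.8, above the highest fold of Stmn2. The receptor gene Nrp1, the kinase genes Cdk5 and Fyn and the CDK5 activator gene Cdk5r1 were not listed.

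Of 12 partners and phosphatases of CRMPs, 3 (25%, against 3.47% of all protein-coding genes) were listed, with a median highest cluster of 40, above the 31 of all listed genes. Kif5c, a kinesin motor gene, had 13 clusters with a height of up to 55 and 28.2% of its 3' UTR covered. Ppp2ca, for the catalytic subunit of the phosphatase PP2A, had 4 clusters with a height of up to 40 that covered 40.9% of its short 3' UTR of 775 bases, and its paralogue Ppp2cb had 1 cluster of height 19. Among the kinases of stathmins, the JNK1 gene Mapk8 had 1 cluster of height 26, below the median of 31 over all listed genes. Of 8 RNA-binding protein genes linked to stathmin or growth-associated transcripts, the neuronal ELAV genes Elavl3 (43, with 5 clusters) and Elavl2 (24) were listed, which is 25% against 3.47% of all protein-coding genes. The 3 IGF2BP genes were not.

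The listed genes most like each of the family in number of clusters, highest height and share of the 3' UTR covered were then found. The likeness was the distance over the percentile ranks of these measures among 729 genes. Nearest to Dpysl2 was Cd24a, a surface glycoprotein gene of immature neurons, with 10 clusters, a height of 92 and 42.7% covered, at a distance of 2.26 percentile points. Marcks, for a protein that links membrane and actin, followed with 11 clusters, a height of 79 and 48.5% covered, and then Map1b with 25 clusters, a height of 90 and 75.1% covered. Percentile ranks lie close together at the top of the list, so a small distance there can hide large differences. Map1b was 2.71 percentile points from Dpysl2, which had 10 clusters and 62.6% covered.

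Nearest to Stmn2 was Matr3, a nuclear matrix protein gene, with 5 clusters, a height of 68 and 22.8% covered. It was followed by the membrane proteolipid gene Gpm6b (9 clusters, height 72, 22.0% covered) and the fatty acid desaturase gene Scd2 (7 clusters, height 90, 35.0% covered). Dpysl5 was closest to Dclk1, a doublecortin-like kinase gene of microtubules, with 3 clusters, a height of 44 and 4.15% covered, and the insulin receptor gene Insr was also near it, with 3 clusters, a height of 39 and 5.18% covered. On this scale Crmp1 had no close neighbour: Uba2, the nearest, was 17.2 percentile points away, with 2 clusters, a height of 24 and 10.2% covered. The scale is coarse at low numbers of clusters, where many genes tie. Of the 761 listed genes, 419 had 1 cluster and 141 had 2, so a step between these numbers weighs heavily in the distance. Psat1 (24.3 points) and Dnm1l (25.5 points) followed.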

How the data were processed

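HITS-CLIP of IMP2 from E14 mouse brain was summarised by the authors in a deposited list of clusters with RefSeq annotation. Bowtie, FastQC and the build mm9 are named in the submitters' processing notes, without versions; these notes, the labels and the file header name no peak caller, threshold or pooling of the 4 libraries. Heights were deposited as a signal (pileup) in whole numbers, and the deposited fold is a ratio with an undefined denominator. Other deposited columns gave regions and the bases that cluster and region share, at least 10. PCR duplicates in the heights could not be checked.

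The 2865 lines were reduced to 1828 distinct clusters with Python 3.11.15 and pandas 2.3.3. Starts were made 1-based. Of 1099 transcripts, 1088 were matched by accession and 11 by name to the GRCm38 table of RefSeq, which gave names and the set of 21900 protein-coding genes. A cluster took the region of its midpoint. The covered share is the union of clustered bases in the longest deposited 3' UTR interval of the gene. Ranks count the genes or clusters with higher values. On simulated data the number of clusters, the covered share and the highest height of each gene were recovered. That simulation held only plus-strand clusters inside a 3' UTR. It did not exercise the name matching, the ranks, the minus strand or clusters that cross a stop codon. No test was run, since no column belongs to a single library. No sequence is printed, because no mm9 genome was used here.

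The genes and the 6 gene lists were chosen with earlier results of these data known. Named genes are the CRMP and stathmin families, up to 4 listed members of each other list with the highest clusters, and the 3 listed genes nearest to each family gene; some genes that this rule takes are not reported here. Alternatives were joined clusters, taller clusters alone, higher folds alone, fold in place of height, other 3' UTR intervals and other region rules.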

Additional observations from a re-analysis of the deposited data

How the results depend on the processing

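Without library values, depth per library is unknown and the precision of heights could not be given. No paired analysis was possible because the list holds no column of a single library. Region counts kept their values under both other rules, and joining touching clusters changed no number. Joining clusters at most 50 bases apart left 8 in Dpysl2 and 5 in Stmn2 and gave median widths of 181.5 and 46 bases. Joining at most 100 bases apart, added after seeing the data, left 5 in Dpysl2 (median width 305 bases) and 5 in Stmn2 (46 bases). Dpysl5 and Crmp1 kept their numbers in both. The density per 1000 bases of 3' UTR, an alternative added after seeing the data, became 3.22 in Dpysl2 and 3.13 in Stmn2 when joined at 50 bases, and 2.02 in Dpysl2 and 3.13 in Stmn2 when joined at 100 bases. Unlike the numbers of joined clusters, these densities leave out the Stmn2 cluster across the stop codon.

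With clusters taller than the median height alone, 8 clusters remained in Dpysl2, 3 in Stmn2, 1 in Dpysl5 and 0 in Crmp1, so 3 family genes were listed in place of 4. Their median heights became 53, 43 and 41, the median widths 128.5, 57 and 50 bases and the shares covered 58.1%, 14.9% and 1.64%, with 0% in Crmp1, which then gave no height or width. With folds above the median fold, 4 clusters remained in Dpysl2 and 1 each in Stmn2 and Dpysl5, with 0 in Crmp1. Fold in place of height put Stmn2 (9.25) before Dpysl2 (8.57), Dpysl5 (5.99) and Crmp1 (2.54); the median height over clusters gave 43 in Dpysl2, 29.5 in Stmn2, 25 in Dpysl5 and 19 in Crmp1. Without its highest cluster, an alternative added after seeing the data, the share covered was 46.8% in Dpysl2, 17.7% in Stmn2, 2.82% in Dpysl5 and 4.11% in Crmp1. The shortest 3' UTR interval moved Crmp1 alone, and only in the digits beyond its rounded 15.6%. The order of Dpysl5 and Crmp1 by share covered thus turned when only taller clusters were counted, since none of those of Crmp1 is that tall.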
